A study of Mus musculus with 28 samples.

Results

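The genes described here encode the proteins of cytotoxic granules: the granzymes Gzma, Gzmb, Gzmc, Gzmk and Gzmm, the pore former Prf1 (perforin), and the granule proteins Nkg7 and Ctsw (cathepsin W). Members were the probe sets (groups of short probes for 1 transcript) whose platform annotation gives 1 of these 8 symbols. That gave 9 of the 20380 probe sets with a single gene symbol, 1 for each gene and a pair for Prf1. All 9 were kept and no filter on low signal was applied to them. They were followed across all 10 groups of a mouse T cell array study of 28 Affymetrix arrays.

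The cells came from C57BL/6N mice. CD4+ cells carried the transgenic AND T cell receptor and CD8+ cells the transgenic OT1 receptor, so a CD8 minus CD4 difference cannot be told apart from one between receptors and their antigens. All cells spent 2 days in RPMI medium with 5 ng/ml interleukin 7, either in uncoated plates (unstimulated) or in plates coated with 10 µg/ml antibodies to CD3 and CD28 (stimulated). The 4 groups of day 2 were sorted after this culture, and their RNA was amplified before labelling. The 6 groups of day 5 had a further 3 days in a host mouse. Unstimulated cells went into hosts without their antigen. Cells from coated plates went into hosts without antigen (transient stimulation) or into antigen-expressing hosts, described as dtg-O or -M (continuous stimulation). They were sorted from spleen and lymph nodes to high purity. The series describes the arrays of a group as independent biological replicates. There were 3 arrays in each group, except CD4 unstimulated and CD4 transient of day 5 with 2 each. The ages of the mice were not given in the sources used here.

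Cytotoxic T cells and natural killer cells store perforin and granzymes in secretory granules and release them onto a bound target. Perforin opens the target's membrane, and granzymes, which are serine proteases, then cut proteins inside it. Granzyme B starts apoptosis through caspases, granzymes A, K and M cleave other substrates, and inhibitors such as Serpinb9 protect the killer from its own granzyme B. Nkg7 is a membrane protein of the granules that takes part in their release, and cathepsin W is a cysteine protease of killer lymphocytes.

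All values are log2 signals, and a difference of 1 is a 2-fold change. Array medians lay between 6.29 and 6.53 on 26 arrays, and at 4.83 and 4.97 on the third unstimulated arrays of day 2. Those arrays also went against their labels in the coreceptor genes. The third array labelled CD4 unstimulated had Cd8a at 9.88, against 6.59 and 6.90 on the others, and Cd4 at 5.40 against 8.78 and 8.41. The third array labelled CD8 unstimulated had Cd8a at 5.78, against 11.93 and 11.65. Counts of day 2, and the values of members that they changed, are therefore also given without both (called the doubtful arrays). The gap between the 3' and 5' probe sets of actin, which grows as RNA breaks down, was 2.42 to 2.73 in CD4 transient cells and 1.92 to 2.44 in CD8 unstimulated cells of day 5. It was 0.31 to 1.02 in the other groups of day 5, 2.28 to 4.30 in unstimulated cells of day 2 and 1.11 to 1.69 in stimulated ones. Ncr1 and Klra8, which define natural killer cells, lay below the lower quartile of their array on 28 of 28 arrays. Fcer1g and Tyrobp, the other measured genes of the natural killer list, did so on 0 and 1 of 28. They ranged from 4.63 to 9.54 and from 3.85 to 11.67. B cell genes stood out in CD4 transient cells, with Ms4a1 at 12.85 and 11.12. The mean over the 5 B cell genes was 7.73 to 8.86 there, against 5.07 to 6.03 in CD4 unstimulated cells of day 5. Other groups of day 5 varied too. The CD8 unstimulated arrays had means of 4.65 to 7.92 over 7 myeloid and 4.88 to 7.33 over 4 natural killer cell genes. Theirs were 5.57 to 7.34 for the B and 4.71 to 6.48 for 5 mast cell genes. The myeloid mean reached 7.05 in CD4 transient, 6.48 in CD4 unstimulated and continuous, 6.21 in CD8 transient and 5.82 in CD8 continuous cells. The part of these in the results was not tested.

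Gzmb (probe set 1419060_at), the granzyme that triggers caspases, was, with all arrays, the member called in both lineages after 2 days of stimulation, although the CD4 call was lost without each of 3 arrays. The 250 bases before its start are shown because Gzmb separated the stimulated groups from the others most widely. They lie on chromosome 14 of RefSeq's GRCm38.p6, minus strand, at chr14:56262335-56262584, with matches to searched motifs in capitals.
Gzmb: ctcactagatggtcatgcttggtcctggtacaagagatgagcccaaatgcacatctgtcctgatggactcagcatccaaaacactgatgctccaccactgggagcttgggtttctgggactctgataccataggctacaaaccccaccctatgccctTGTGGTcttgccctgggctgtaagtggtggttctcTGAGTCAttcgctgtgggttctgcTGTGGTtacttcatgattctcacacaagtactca
This window holds the Runx core TGTGGT at -93 and -34, the position of the first base of the match relative to the gene's start, and the AP-1 motif TGANTCA at -58. A search of both strands found the Runx core in 14% of 32851 mouse windows of this length and the AP-1 motif in 6.75%. Among the 8 windows of the members (2 of them of Gzmm, and none matched for Ctsw), the Runx core was in 6 and the AP-1 motif in that of Gzmb. These letters and motifs were chosen with the sequences in view, and a match describes only the letters.

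In unstimulated CD8 cells of day 2, Gzmb stood at 5.59, 6.33 and 4.99, and in stimulated ones at 13.38, 13.01 and 13.09. The groups were far apart, and the difference was 7.53 (SE 0.97, 184-fold, adjusted p = 0.000575, limma with Benjamini-Hochberg adjustment, as for all adjusted p-values here). In CD4 cells the unstimulated arrays read 6.37, 6.28 and 3.95 and the stimulated ones 10.08, 11.38 and 6.72, so that the third stimulated array lay only just above the unstimulated ones. The difference was 3.86 (SE 0.97, 14.5-fold, adjusted p = 0.0223). This call was lost without the third unstimulated array (adjusted p = 0.0619), the first stimulated array (0.0975) or the second stimulated array (0.100), while the difference stayed between 2.87 and 5.20. Without both doubtful unstimulated arrays it was 3.07 (adjusted p = 0.0308) in CD4 cells and 7.20 (adjusted p = 0.00135) in CD8 cells. Stimulated CD8 cells stood 3.77 above stimulated CD4 cells (SE 0.97) and the CD8 response exceeded the CD4 response by 3.66 (SE 1.37), but neither was called over all probe sets (adjusted p = 1.00 for both). In sorted bulk samples, fewer cells that express a gene and less of its RNA per cell cannot be told apart.

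On day 5, Gzmb was high where antigen was present. In CD4 cells it stood at 5.00 and 5.61 unstimulated, 6.79 and 7.31 after transient stimulation, and 13.26, 12.71 and 12.31 with continuous antigen. Continuous cells exceeded transient cells by 5.71 (SE 0.77, 52.4-fold, adjusted p = 7.17e-05) and unstimulated cells by 7.45 (SE 0.77, 175-fold, adjusted p = 2.76e-05). These comparisons share the continuous arrays. The CD8 cells read 6.84, 6.20 and 7.12 unstimulated, 7.71, 7.51 and 8.76 transient, and 13.10, 13.35 and 9.92 continuous. Even the lowest continuous array lay above every transient array, and the difference was 4.13 (SE 0.69, 17.5-fold, adjusted p = 0.000612). Against unstimulated CD8 cells it was 5.40 (SE 0.69, adjusted p = 2.59e-05). Transient and unstimulated cells did not overlap in either lineage, but the differences of 1.74 in CD4 cells (SE 0.84, adjusted p = 0.162) and 1.27 in CD8 cells (SE 0.69, adjusted p = 0.186) were not called. The CD8 value passed without the third arrays of the CD8 groups (1.09, adjusted p = 0.0385).

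Ordered by their means, Gzmb was highest in stimulated CD8 cells of day 2 (13.16 ± 0.19, SD, n = 3), then in continuous CD4 (12.76 ± 0.48, n = 3) and continuous CD8 cells (12.12 ± 1.91, n = 3), and the ranges of these neighbours overlapped. Stimulated CD4 cells of day 2 followed at 9.40 ± 2.40 (n = 3). The lowest means, 5.31 to 5.64, were those of CD4 unstimulated cells of both days and CD8 unstimulated cells of day 2, whose ranges overlapped. CD8 cells that had been stimulated and then rested without antigen stood 5.17 below stimulated cells of day 2 (SE 0.89, adjusted p = 0.000312). With continuous antigen the CD8 level was 1.04 below that of day 2 (SE 0.89, adjusted p = 0.795), and 0.06 above it without the third continuous array. In CD4 cells the continuous level was 3.36 above that of day 2 (SE 0.89, adjusted p = 0.0169). That call was lost without the third stimulated array of day 2 (2.03, adjusted p = 0.172) or the first continuous array. Transient CD4 cells differed from stimulated ones by -2.35 (SE 0.99, adjusted p = 0.139), a call gained without the third stimulated array (-3.68, adjusted p = 0.00868) and with the replicate number as a block (-2.75, adjusted p = 0.0393). Day, culture, host and the RNA amplification described for day 2 change together in these comparisons and cannot be told apart. This holds for every comparison across days, also those below. The actin gap was 1.11 to 1.69 in stimulated cells of day 2 and 2.42 to 2.73 in CD4 transient cells. It was 0.31 to 1.02 in CD8 transient cells and the continuous cells of both lineages. Its part in these comparisons was not tested.

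**Figure D1:**
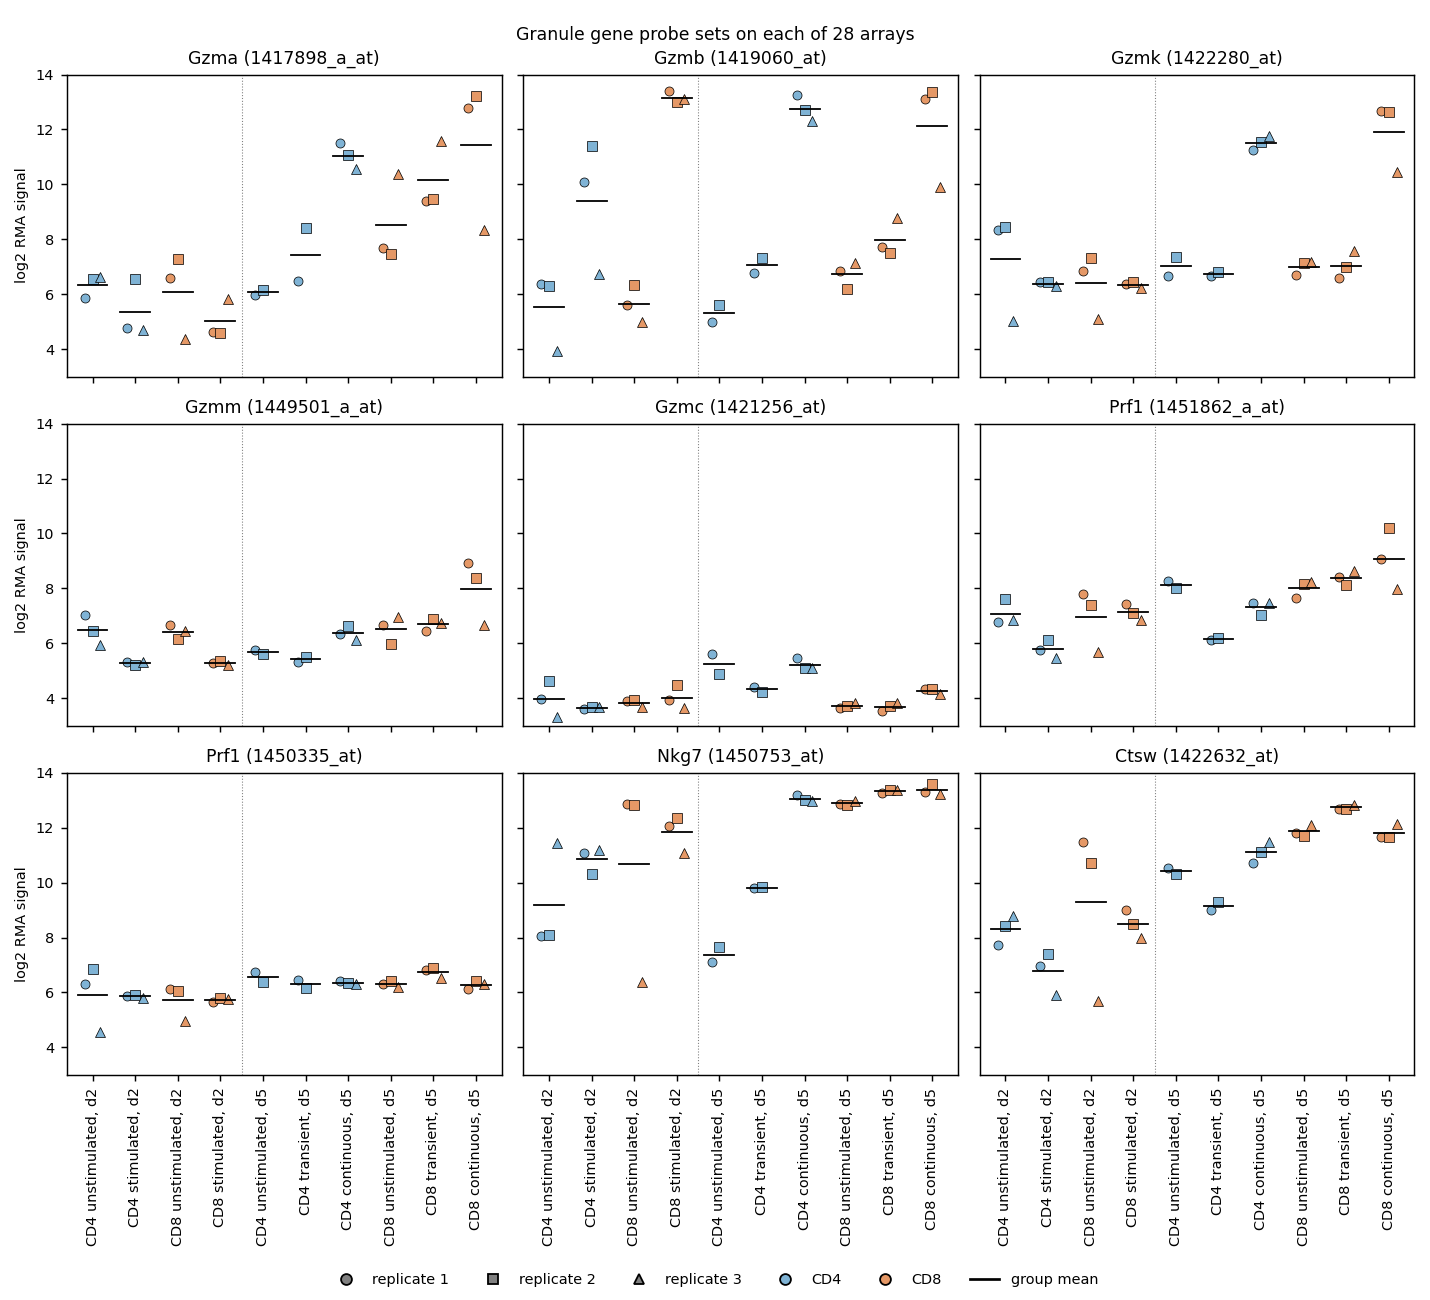
The log2 RMA signal of the 9 probe sets is plotted for each array (symbols by replicate number) in the 10 groups on the horizontal axis, with the group mean as a bar and a dotted line between day 2 and day 5. Gzmb is high in stimulated cells of day 2 and continuous cells of day 5, and Gzmk in continuous cells of day 5. On day 5 Nkg7 is high in all CD8 groups and in CD4 continuous cells.

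Gzma (1417898_a_at), the tryptase granzyme, was not raised by 2 days of stimulation. On day 5 it was high in CD4 continuous cells and on part of the CD8 arrays. Stimulated cells of day 2 read 4.78, 6.55 and 4.71 in the CD4 lineage and 4.62, 4.57 and 5.83 in the CD8 lineage. The CD8 difference from unstimulated cells was -1.06 (SE 0.72, adjusted p = 0.456), and -1.92 without the doubtful arrays (adjusted p = 0.0349). In CD4 cells of day 5 Gzma was 5.97 and 6.16 unstimulated, 6.49 and 8.41 transient, and 11.50, 11.07 and 10.57 continuous. The continuous arrays stood clear of all others, by 4.98 over unstimulated (SE 1.25, 31.6-fold, adjusted p = 0.0119) and 3.60 over transient cells (SE 1.25, adjusted p = 0.0394). The first call was lost without either unstimulated array (adjusted p up to 0.0776). The second was lost without the first transient array or any of the 3 continuous ones (2.64 to 4.56 over all arrays left out, adjusted p up to 0.261), with trend and robust moderation, and with the replicate block (adjusted p = 0.0621). The transient value of 1.38 over unstimulated cells was not called (SE 1.37, adjusted p = 0.526).

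In CD8 cells of day 5 Gzma varied between arrays of a group as much as between groups. It read 7.67, 7.45 and 10.39 unstimulated, 9.41, 9.45 and 11.59 transient, and 12.78, 13.21 and 8.33 continuous. On the third arrays it was thus high in the unstimulated and transient groups and low in the continuous one. Continuous cells stood 2.94 above unstimulated cells (SE 1.12, adjusted p = 0.0450) with overlapping groups. That call was lost without the first or second unstimulated array, without the first or second continuous array (2.05 at the lowest, adjusted p up to 0.187), with quantile normalization, with trend and robust moderation and with the replicate block (adjusted p = 0.0637). Without the third continuous array the difference was 4.49 (adjusted p = 0.000823). The continuous minus transient difference of 1.29 was not called (SE 1.12, adjusted p = 0.465). It was 2.84 without the third continuous array (adjusted p = 0.0229) and 3.56 without the third arrays of all 3 CD8 groups (adjusted p = 0.000560). Transient minus unstimulated was 1.65 (SE 1.12, adjusted p = 0.297), and 1.87 without the third arrays (adjusted p = 0.0200).

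Compared with stimulated cells of day 2, Gzma was higher on day 5 by 6.43 in CD8 continuous (SE 1.01, 86.3-fold, adjusted p = 0.000296), 5.14 in CD8 transient (SE 1.01, adjusted p = 0.00117) and 5.70 in CD4 continuous cells (SE 1.01, adjusted p = 0.000666). Transient CD8 cells of day 5 thus had a higher Gzma and a lower Gzmb signal than stimulated CD8 cells of day 2. The higher Gzma signal was shared by the CD8 continuous cells, so it was not particular to hosts without antigen. Continuous CD8 and CD4 cells differed by 0.39 (SE 1.12, adjusted p = 0.903), and by 1.94 without the third CD8 arrays (adjusted p = 0.0227).

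Gzmk (1422280_at), another tryptase, was raised only by continuous antigen among the day 5 comparisons. Its upstream window is shown beside that of Gzmb because both genes moved together under continuous antigen and apart on day 2. It lies on the minus strand of GRCm38.p6 (RefSeq), at chr13:113180966-113181215, with the T-box motif GGTGTGA in capitals.
Gzmk: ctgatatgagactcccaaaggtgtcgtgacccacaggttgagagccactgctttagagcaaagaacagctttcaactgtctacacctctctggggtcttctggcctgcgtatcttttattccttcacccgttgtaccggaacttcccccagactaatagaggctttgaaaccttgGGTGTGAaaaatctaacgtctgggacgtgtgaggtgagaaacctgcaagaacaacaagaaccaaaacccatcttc
The match begins at -75 from the start. The T-box letters, on either strand, were in 3.33% of all windows and in 3 of the 8 member windows. The Runx core and the AP-1 letters of the Gzmb window were not found in this one.

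The CD4 arrays of day 5 gave Gzmk signals of 6.66 and 7.36 unstimulated, 6.65 and 6.82 transient, and 11.24, 11.54 and 11.78 continuous. The continuous level was 4.78 above transient (SE 0.52, 27.5-fold, adjusted p = 1.28e-05) and 4.51 above unstimulated cells (SE 0.52, adjusted p = 5.94e-05). The CD8 arrays read 6.69, 7.14 and 7.18 unstimulated, 6.59, 6.98 and 7.56 transient, and 12.67, 12.63 and 10.46 continuous. Again no continuous array overlapped with the others, and the differences were 4.88 from transient (SE 0.46, 29.4-fold, adjusted p = 1.66e-05) and 4.92 from unstimulated cells (SE 0.46, adjusted p = 1.92e-06). Transient and unstimulated arrays overlapped in both lineages. Continuous CD8 and CD4 cells differed by 0.40 (SE 0.46, adjusted p = 0.702), and by 1.13 without the third continuous CD8 array (adjusted p = 0.0191).

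On day 2 all 6 stimulated arrays had Gzmk between 6.22 and 6.45, so that the lineages overlapped. The unstimulated arrays read 8.32, 8.44 and 5.04 in CD4 and 6.84, 7.30 and 5.10 in CD8 cells. With all arrays, stimulated minus unstimulated was -0.88 in CD4 (SE 0.79, adjusted p = 0.588) and -0.08 in CD8 cells (SE 0.79, adjusted p = 0.984). Without the doubtful arrays Gzmk fell, by 1.99 in CD4 (adjusted p = 5.49e-05) and by 0.73 in CD8 cells (adjusted p = 0.0128), and the responses differed by 1.26 (adjusted p = 0.0441). In this setting 37.8% of all probe sets were lower in stimulated CD4 and 19.1% in stimulated CD8 cells. Markers of other cells were among them. In CD4 cells 5 of 5 B cell, 7 of 7 myeloid, 5 of 5 mast cell, 2 of 2 red cell and 2 of 4 natural killer cell genes were then also lower in stimulated cells. In CD8 cells 0 of 5, 2 of 7, 1 of 5, 2 of 2 and 1 of 4 were lower, with both CD8 genes. Here the B, myeloid, mast and natural killer cell counts lay near or below the share of all probe sets. Of the 5 general T cell genes 2 were lower and 1 higher in CD4, and 3 lower and 1 higher in CD8 cells. The actin gap was 1.11 to 1.69 in stimulated and 2.28 to 4.30 in unstimulated cells. The part of these in the falls of Gzmk and of the other members that fell without the doubtful arrays was not tested. From stimulated cells of day 2 to continuous cells of day 5 Gzmk rose by 5.13 in CD4 (SE 0.67, adjusted p = 2.85e-05) and 5.58 in CD8 cells (SE 0.67, adjusted p = 1.14e-05). Gzmb was high at both of these stages and Gzmk at the later one.

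Gzmm (1449501_a_at), a granzyme that cuts after methionine and leucine, had its highest level in CD8 continuous cells. There it read 8.91, 8.38 and 6.67, against 6.45, 6.87 and 6.76 in transient and 6.68, 5.97 and 6.97 in unstimulated CD8 cells. The third continuous array lay within the range of the other groups. The differences were 1.29 from transient (SE 0.42, adjusted p = 0.0353) and 1.45 from unstimulated cells (SE 0.42, adjusted p = 0.0122). The first was lost without any transient array or without the first or second continuous array (0.83 at the lowest, adjusted p up to 0.179). The second was lost without the second unstimulated or the first or second continuous array. Without the third continuous array they were 1.95 (adjusted p = 0.000112) and 2.10 (adjusted p = 2.73e-05). CD4 cells read 6.34, 6.63 and 6.13 continuous, 5.31 and 5.51 transient, and 5.75 and 5.61 unstimulated, with uncalled differences of 0.96 (SE 0.47, adjusted p = 0.141) and 0.69 (SE 0.47, adjusted p = 0.371) in spite of groups that did not overlap. Continuous CD8 exceeded continuous CD4 cells by 1.62 (SE 0.42, adjusted p = 0.0264). That call was lost without the first or the third CD4 or the first or second CD8 continuous array (adjusted p up to 0.111), and the value was 2.27 without the third CD8 array.

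On day 2 the stimulated arrays had Gzmm between 5.20 and 5.34 and the unstimulated ones between 5.94 and 7.02. The differences of -1.18 in CD4 (SE 0.38, adjusted p = 0.0620) and -1.16 in CD8 cells (SE 0.38, adjusted p = 0.0789) just missed the threshold. Both passed without the doubtful arrays, at -1.45 (adjusted p = 0.000578) and -1.15 (adjusted p = 0.00408). Gzmm was higher on day 5 than in stimulated CD8 cells of day 2, by 2.72 in continuous (SE 0.39, adjusted p = 0.000102) and by 1.42 in transient cells (SE 0.39, adjusted p = 0.0160). The transient call was lost without the first or the third stimulated array, without the second or the third transient array (adjusted p up to 0.0677), and with quantile normalization.

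Gzmc (1421256_at), a granzyme of the cluster that also holds Gzmb, was dim. It lay between 3.32 and 5.62, below the lower quartile of its array on 23 of 28 arrays and below the median on 28. Its highest arrays were those of CD4 cells of day 5, at 5.62 and 4.88 unstimulated and 5.48, 5.10 and 5.10 continuous, while CD4 transient cells read 4.42 and 4.22. The lower quartile of the day 5 arrays was 4.65 to 4.83, and the arrays above their own quartile were those of CD4 unstimulated and continuous cells. Continuous exceeded transient CD4 cells by 0.91 (SE 0.19, adjusted p = 0.00187), and transient lay 0.93 under unstimulated ones (SE 0.20, adjusted p = 0.00503), a call lost without the first unstimulated array (-0.56, adjusted p = 0.0720). CD8 cells read 4.33, 4.34 and 4.17 continuous, against 3.55 to 3.81 in the other 2 CD8 groups. The differences of 0.59 from transient (SE 0.17, adjusted p = 0.0174) and 0.55 from unstimulated cells (SE 0.17, adjusted p = 0.0149) were called between arrays that all lay below the quartile. The former was lost without the first transient or the first or second continuous array (adjusted p up to 0.0704). The Gzmc signal was lower in CD8 than in CD4 cells in the unstimulated (-1.52, SE 0.19, adjusted p = 6.08e-05), transient (-0.63, SE 0.19, adjusted p = 0.0226) and continuous groups (-0.95, SE 0.17, adjusted p = 0.00329). The CD8 arrays lay below the quartile in each of these and the CD4 arrays too in the transient one, so that the sizes are not measured lineage differences. The transient call was lost without the first transient array of either lineage. From stimulated cells of day 2 to continuous cells of day 5, Gzmc rose by 1.58 in CD4 cells (SE 0.27, adjusted p = 0.000548), again from arrays below the quartile.

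The remaining granzymes of the array, Gzmd, Gzme, Gzmf, Gzmg and Gzmn, lie in the same cluster on chromosome 14. Their 5 probe sets read 2.31 to 5.12 over all arrays, and 139 of 140 values lay below the lower quartile of their array. None of the 5 was called in any of the 19 comparisons.

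Perforin (Prf1) was read by a pair of probe sets that disagreed, so results are given by probe set. The first, 1451862_a_at, ranged from 5.45 to 10.19 and the second, 1450335_at, from 4.54 to 6.89, below the array median on 21 of 28 arrays. On the first, CD8 cells of day 5 read 7.65, 8.18 and 8.24 unstimulated, 8.42, 8.12 and 8.64 transient, and 9.06, 10.19 and 7.98 continuous. The third continuous array lay within the range of the other groups. Continuous exceeded unstimulated cells by 1.06 (SE 0.39, adjusted p = 0.0380). The call was lost without any unstimulated array or without the first or second continuous array (0.50 at the lowest, adjusted p up to 0.180), with quantile normalization, and with the replicate block (adjusted p = 0.0521). Without the third continuous array it was 1.61 (adjusted p = 0.000546). Continuous minus transient was 0.68 (SE 0.39, adjusted p = 0.232), and 1.23 without that array (adjusted p = 0.00569).

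In CD4 cells of day 5 the same probe set read 8.27 and 8.00 unstimulated, 6.11 and 6.18 transient, and 7.47, 7.04 and 7.48 continuous. The transient level was 1.99 under the unstimulated one (SE 0.47, adjusted p = 0.00816), and this call was lost without the first unstimulated array (adjusted p = 0.0616). The continuous level was 1.18 above the transient one (SE 0.43, adjusted p = 0.0495). That call was lost without any of the 5 arrays (adjusted p = 0.0548 to 0.171), with one probe set per gene, quantile normalization, median centring or trend and robust moderation, and with the replicate block (adjusted p = 0.0614). CD8 exceeded CD4 cells by 2.25 in the transient (SE 0.43, adjusted p = 0.00160) and by 1.75 in the continuous groups (SE 0.39, adjusted p = 0.0117). On day 2, stimulated minus unstimulated CD4 cells was -1.30 (SE 0.52, adjusted p = 0.140), and -1.42 without the doubtful arrays (adjusted p = 0.00386). Continuous cells of day 5 stood above stimulated cells of day 2 by 1.55 in CD4 (SE 0.46, adjusted p = 0.0343) and 1.95 in CD8 cells (SE 0.46, adjusted p = 0.0124). The CD4 call was lost without each of 5 arrays: the first or the third stimulated array, or any continuous one (adjusted p up to 0.152). The CD8 call was lost without the third stimulated or the second continuous array (1.40 at the lowest, adjusted p = 0.125).

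The second Prf1 probe set, 1450335_at, moved little. In CD8 cells of day 5 it read 6.29, 6.43 and 6.22 unstimulated, 6.82, 6.89 and 6.52 transient, and 6.12, 6.41 and 6.29 continuous. Its transient level was 0.43 above unstimulated (SE 0.13, adjusted p = 0.0246), and the continuous level was 0.47 under transient (SE 0.13, adjusted p = 0.0170). The first call was lost without the first or the third unstimulated or the first or second transient array (adjusted p up to 0.0868), the second without the first or second transient or the first continuous array (adjusted p up to 0.0845). On this probe set continuous cells thus stood below transient ones, while the other read 0.68 the opposite way, uncalled. Transient CD8 exceeded transient CD4 cells by 0.44 (SE 0.15, adjusted p = 0.0421), a call lost without the second CD4 or the first or second CD8 transient array (adjusted p up to 0.294) and with quantile normalization, median centring, or trend and robust moderation. In CD4 cells of day 2, stimulated minus unstimulated was -0.03 (SE 0.55, adjusted p = 0.987), and -0.70 without the doubtful arrays (adjusted p = 0.00859).

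Nkg7 (1450753_at) was the member that most cleanly parted the lineages on day 5 outside of continuous antigen. Its window on chromosome 7, plus strand, at chr7:43436888-43437137 (GRCm38.p6, RefSeq) is shown because its level differed most between unstimulated CD8 and CD4 cells. The Runx core (here as its reverse complement) and the T-box letters are in capitals.
Nkg7: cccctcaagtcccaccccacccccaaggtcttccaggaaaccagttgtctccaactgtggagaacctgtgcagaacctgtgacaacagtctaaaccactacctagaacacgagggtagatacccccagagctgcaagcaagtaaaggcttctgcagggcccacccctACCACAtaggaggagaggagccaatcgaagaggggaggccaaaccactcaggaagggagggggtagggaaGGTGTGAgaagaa
The matches begin at -83 and -13 from the start. The cyclic AMP response element TGACGTCA, the remaining motif searched, was in 1.55% of all windows and, among the members, in that of Gzmc.

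Nkg7 stood at 7.11 and 7.64 in unstimulated CD4 cells of day 5, 9.79 and 9.83 in transient and 13.21, 13.02 and 12.96 in continuous ones. These groups did not overlap and formed 3 steps. Transient exceeded unstimulated cells by 2.43 (SE 0.17, 5.40-fold, adjusted p = 1.89e-06), continuous exceeded transient cells by 3.25 (SE 0.15, 9.53-fold, adjusted p = 5.34e-08), and continuous exceeded unstimulated cells by 5.69 (SE 0.15, 51.5-fold, adjusted p = 9.10e-11). All of these comparisons kept their call with each array left out. CD8 cells were already at 12.87, 12.82 and 12.98 unstimulated, and read 13.28, 13.38 and 13.38 transient and 13.29, 13.58 and 13.23 continuous.

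The CD8 differences of Nkg7 were small, 0.46 for transient (SE 0.14, adjusted p = 0.0213) and 0.48 for continuous over unstimulated cells (SE 0.14, adjusted p = 0.0108). The first was lost without the second unstimulated, the second or the third transient array (adjusted p up to 0.0646), with quantile normalization, and without the third arrays of all CD8 groups (adjusted p = 0.0796). The second was lost without the second continuous array (adjusted p = 0.0581). CD8 minus CD4 was 5.51 in unstimulated (SE 0.15, 45.7-fold, adjusted p = 4.59e-11), 3.54 in transient (SE 0.15, adjusted p = 5.81e-09) and 0.31 in continuous cells (SE 0.14, adjusted p = 0.195). The lineage difference was thus called in the unstimulated and transient groups, and the change from transient to continuous differed between lineages by -3.23 (SE 0.21, adjusted p = 4.10e-06).

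On day 2 the doubtful arrays decided the result for Nkg7. Unstimulated CD4 arrays read 8.06, 8.10 and 11.43 and stimulated ones 11.07, 10.32 and 11.18, a difference of 1.66 (SE 1.41, adjusted p = 0.557) that was 2.78 without those arrays (adjusted p = 0.000383). Unstimulated CD8 arrays read 12.88, 12.81 and 6.39 and stimulated ones 12.06, 12.37 and 11.09, a difference of 1.14 (SE 1.41, adjusted p = 0.750) that turned to -1.01 without them (adjusted p = 0.0635). The responses then differed by -3.79 (adjusted p = 0.0170), against -0.52 with all arrays (SE 1.99, adjusted p = 1.00).

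Ctsw (1422632_at) followed a different order, highest in CD8 transient cells. CD8 cells of day 5 read 11.81, 11.71 and 12.10 unstimulated, 12.69, 12.70 and 12.84 transient, and 11.66, 11.66 and 12.15 continuous. The transient arrays stood clear of both other groups, 0.87 above unstimulated (SE 0.19, adjusted p = 0.00326), while continuous cells lay 0.92 under transient ones (SE 0.19, adjusted p = 0.00250). CD4 cells went the opposite way, at 10.53 and 10.33 unstimulated, 9.01 and 9.29 transient, and 10.72, 11.10 and 11.49 continuous. Here transient cells were lowest, 1.28 below unstimulated (SE 0.23, adjusted p = 0.00137), and continuous cells were 1.95 above transient (SE 0.21, adjusted p = 1.26e-05). Continuous minus unstimulated was 0.68 in CD4 cells (SE 0.21, adjusted p = 0.0362), a call lost with quantile normalization and without either unstimulated or the second or the third continuous array (adjusted p up to 0.222).

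The lineages differed in Ctsw by 1.45 unstimulated (SE 0.21, adjusted p = 0.000218), 3.59 transient (SE 0.21, 12.0-fold, adjusted p = 1.53e-07) and 0.72 continuous (SE 0.19, adjusted p = 0.0266), each higher in CD8 cells. The last was lost without the first or second CD4 or the third CD8 continuous array (adjusted p up to 0.116), and without the third arrays of all CD8 groups (0.101). On day 2 the stimulated arrays read 6.97, 7.41 and 5.91 in CD4 and 9.01, 8.48 and 7.99 in CD8 cells, and the unstimulated ones 7.71, 8.43 and 8.77 and 11.47, 10.71 and 5.68. Stimulated minus unstimulated was -1.54 in CD4 (SE 1.11, adjusted p = 0.467) and -0.80 in CD8 cells (SE 1.11, adjusted p = 0.789), and without the doubtful arrays -1.31 (adjusted p = 0.0375) and -2.60 (adjusted p = 0.00386). From stimulated cells of day 2, Ctsw was higher on day 5 by 4.25 in CD8 transient (SE 0.83, adjusted p = 0.00117), 3.33 in CD8 continuous (SE 0.83, adjusted p = 0.0188) and 4.34 in CD4 continuous cells (SE 0.83, adjusted p = 0.00145). The CD8 continuous call was lost without each of 5 of its 6 arrays, all but the first stimulated one (adjusted p up to 0.0878).

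**Figure D2:**
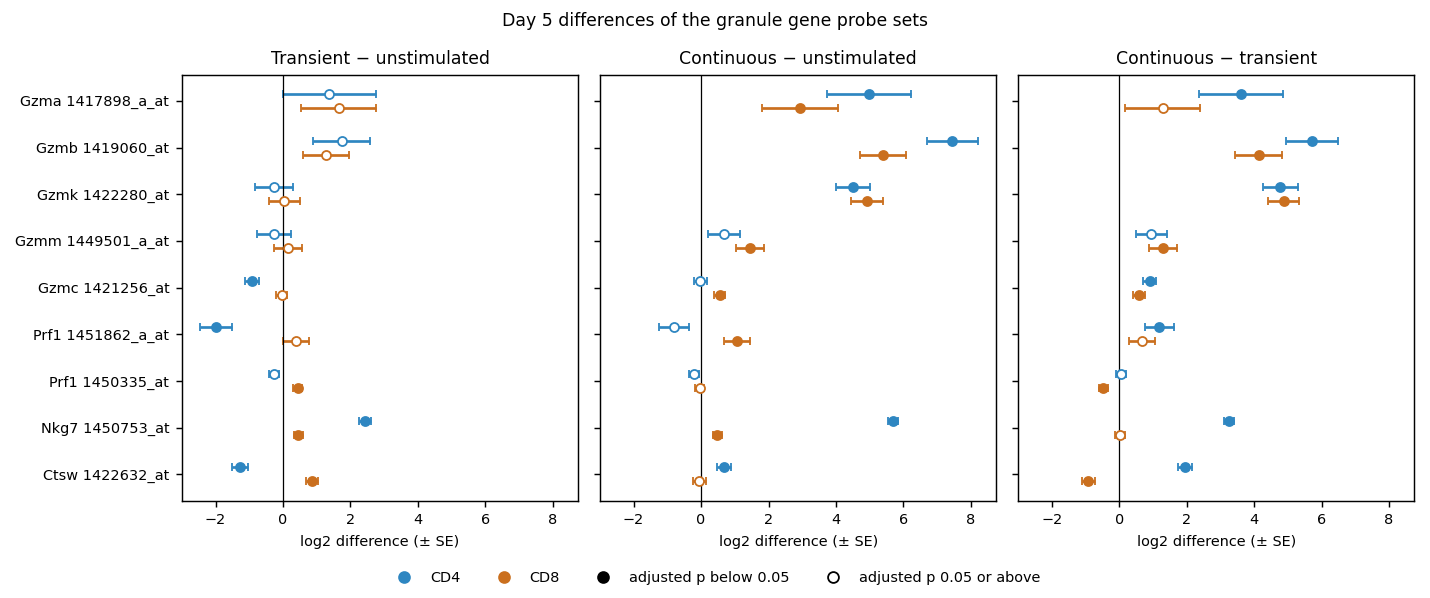
Log2 differences with their limma standard errors are plotted for the 9 probe sets in CD4 (blue) and CD8 cells (orange) of day 5, with filled points for an adjusted p below 0.05. Gzmb and Gzmk lie far right in both continuous comparisons and both lineages, Nkg7 in those of CD4 cells, and Ctsw lies on opposite sides of 0 in CD4 and CD8 cells for transient minus unstimulated.

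On day 2, 1 of 9 member probe sets (Gzmb) was called in each lineage. Of all probe sets 10.9% were called in CD4 cells (10.2% higher, 0.658% lower) and 7.94% in CD8 cells (7.21% higher, 0.736% lower), and the median difference of the members was -0.88 and 0.02, against 0.13 and 0.14 over all probe sets. Without the doubtful arrays 2 members were higher and 5 lower in stimulated CD4 cells, and 1 higher and 4 lower in CD8 cells. Of all probe sets 62.3% were then called in CD4 (24.6% higher, 37.8% lower) and 34.8% in CD8 cells (15.7% higher, 19.1% lower). For the CD8 minus CD4 difference of the response limma called 0 members and 0% of all probe sets, with 121 probe sets at an unadjusted p below 0.05. Between stimulated CD8 and CD4 cells it called 0 members and 0.00981% of all probe sets, with 224 probe sets at an unadjusted p below 0.05.

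For CD4 cells of day 5, 7 members were higher and 0 lower in continuous than in transient cells, where 33.4% of all probe sets were called (18.2% higher, 15.2% lower). The members' median was 1.95, against -0.04 overall. In the same comparison 5 of 5 B cell genes were lower in continuous cells and 3 of 5 general T cell genes (Cd3e, Cd3g and Thy1) higher. The actin gap was 2.42 to 2.73 in CD4 transient cells and at most 1.02 in continuous ones. The part of these in the higher members was not tested. In continuous against unstimulated cells 5 were higher and 0 lower (20.1% of all called, 9.71% higher and 10.4% lower, members' median 0.69), and in transient against unstimulated cells 1 was higher (Nkg7) and 3 lower (Ctsw, Gzmc and 1 Prf1 probe set; 22.8% of all called, 9.12% higher and 13.7% lower, members' median -0.27). The latter 3 were lower in the group with the wider actin gap, the higher B cell genes and lower Cd3e and Cd3g, 2 of the 5 general T cell genes. The part of these in the result was not tested. In CD8 cells 7 members were higher and 0 lower in continuous than in unstimulated cells (46% of all called, 22% higher and 24% lower, members' median 1.06). Of the 9, 4 were higher and 2 lower in continuous than in transient cells (26.5% of all called, 14% higher and 12.5% lower, median 0.68), and 3 were higher in transient than in unstimulated cells (30.3% of all called, 16% higher and 14.2% lower, median 0.43). The actin gap was wider in the unstimulated CD8 group, and its part in the comparisons with that group was not tested. The 3 of 9 members called in CD8 transient cells lay near the share of all probe sets.

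Between lineages on day 5, CD8 minus CD4 gave 2 higher and 1 lower member unstimulated (27.7% of all called, 12.9% higher and 14.8% lower), 4 higher and 1 lower transient (26.4%, 15.3% higher and 11.1% lower), and 3 higher and 1 lower continuous (10.3%, 6% higher and 4.26% lower). The lower one was Gzmc each time, with the CD8 arrays below the lower quartile. The 3 of 9 members called between unstimulated groups lay near the share of all probe sets. There 2 of 5 general T cell genes were lower and 1 of 5 B cell genes higher in CD8 cells. The actin gap was 1.92 to 2.44 in CD8 and 0.67 to 0.98 in CD4 cells. Between transient groups 3 of 5 general T cell genes were higher and 3 of 5 B cell genes lower. The gap was then 0.66 to 1.02 in CD8 and 2.42 to 2.73 in CD4 cells. The part of these in the result was not tested. The change from unstimulated to transient differed between lineages for 5 members (36.5% of all called, 19% higher and 17.5% lower in CD8 cells) and that from transient to continuous for 2, Ctsw and Nkg7 (17.6% of all called, 7.36% higher and 10.2% lower in CD8 cells). From stimulated cells of day 2 to day 5, 6 members rose in CD4 continuous (9.03% of all called, 4.72% higher and 4.32% lower) and 5 in CD8 continuous cells (4.84%, 2.56% higher and 2.28% lower). In CD8 transient cells 3 rose and 1 fell (12.4%, 6.19% higher and 6.23% lower). In CD4 transient cells 0 were called by limma (12.8% of all probe sets called, 5.79% higher and 7.05% lower, and 4779 probe sets at an unadjusted p below 0.05).

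The third CD8 continuous array stood apart in part of the granule genes. It was lower than both other arrays for 7 of 9 member probe sets and more than 1 below their mean for 5. The shortfall was 4.66 for Gzma, 3.31 for Gzmb, 2.19 for Gzmk, 1.97 for Gzmm and 1.64 for Prf1 (1451862_a_at). Nkg7 was 0.21 below and Ctsw 0.48 above the other arrays. Other genes of the killing programme were low there too. Serpinb9 read 8.96 against 10.77 and 10.70, Tbx21 10.11 against 11.43 and 11.96, Prdm1 5.52 against 8.16 and 7.63, and Fasl 7.28 against 8.91 and 9.28. The coreceptor genes were as labelled, with Cd8a at 12.54, 12.76 and 12.58. Its Ms4a1 was 7.46, against 5.07 and 4.74, a difference whose part in the result was not tested. Gzmb, Gzmk and Gzmm kept their call in both CD8 continuous comparisons without this array.

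**Figure D3:**
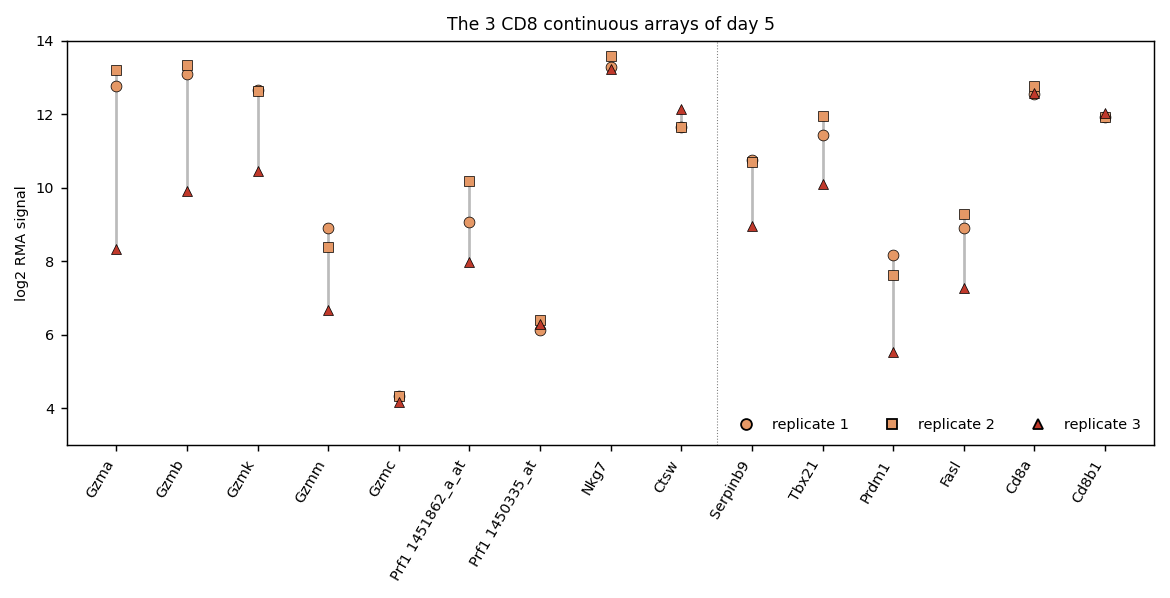
The 3 CD8 continuous arrays are plotted by log2 RMA signal for the 9 member probe sets (left of the dotted line) and 6 other genes, with the third array as a red triangle. It lies lowest for Gzma, Gzmb, Gzmk, Gzmm, Serpinb9, Tbx21, Prdm1 and Fasl, and within 0.21 of the others' mean for Nkg7, with Cd8a and Cd8b1 as on the other arrays.

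The granzyme inhibitors rose with Gzmb on day 2. Of 4 measured inhibitors 2 rose and 0 fell in each lineage (median difference 2.49 in CD4 and 3.45 in CD8 cells). Without the doubtful arrays 2 rose and 1 fell in CD4 cells, and 2 rose and 0 fell in CD8 cells. Of all probe sets 10.9% were called in CD4 and 7.94% in CD8 cells with all arrays. Without the doubtful ones the shares were 62.3% and 34.8%, and they apply to the other lists of day 2 too. Serpinb9, the inhibitor of granzyme B, rose by 3.58 in CD4 (SE 0.49, adjusted p = 0.000884) and by 4.15 in CD8 cells (SE 0.49, adjusted p = 0.000334), and Serpinb6b by 4.09 (SE 0.75, adjusted p = 0.00469) and 5.52 (SE 0.75, adjusted p = 0.000884). On day 5 Serpinb9 read 10.77, 10.70 and 8.96 in CD8 continuous cells against 8.33, 8.12 and 8.62 in transient ones, 1.79 higher (SE 0.35, adjusted p = 0.00184). In CD4 cells it was 9.09, 8.69 and 8.86 with continuous antigen and 8.26 and 8.35 in transient cells (0.57, SE 0.39, adjusted p = 0.296). The other 3 of 4 inhibitors rose there, against 18.2% of all probe sets. Among them were Serpinb6b (1.02, SE 0.23, adjusted p = 0.00352, lost without the second transient array) and Serpinb9b (1.14, SE 0.20, adjusted p = 0.000478). Serpinb6b was higher in transient than in unstimulated cells of both lineages, by 2.20 in CD4 (SE 0.25, adjusted p = 5.00e-05) and 1.47 in CD8 cells (SE 0.21, adjusted p = 0.000117).

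Of 12 genes for granule maturation and storage, 3 rose in CD4 cells on day 2 and 0 in CD8 cells. Without the doubtful arrays 7 rose and 1 fell in CD4, and 3 rose and 0 fell in CD8 cells. Of all probe sets 62.3% were then called in CD4 (24.6% higher) and 34.8% in CD8 cells (15.7% higher). The counts called in either direction lay near or below these shares. The 3 called with all arrays were Cst7, an inhibitor of cathepsins (2.65), the cathepsin Ctsb (2.65) and M6pr, which sorts enzymes to lysosomes (2.72). The M6pr call was lost without the first or the third stimulated array, and the Ctsb call without the first unstimulated or any stimulated array. That of Cst7 was lost without any stimulated array, without the first or second unstimulated array and with quantile normalization (adjusted p up to 0.150). On day 5, CD4 continuous against transient cells gave 5 higher and 1 lower (median 0.13), among them Calr, which binds perforin in the granule (1.57, SE 0.13, adjusted p = 1.77e-06), and Ctsd, a lysosomal protease (1.71, SE 0.22, adjusted p = 5.30e-05). CD8 cells gave 2 higher and 1 lower, with Calr again higher (0.90, SE 0.12, adjusted p = 0.000104). Of all probe sets 33.4% were called in the CD4 and 26.5% in the CD8 comparison. The CD8 count lay near its share. Cst7 resembled Nkg7: it was 8.03 and 8.31 in unstimulated CD4 and 11.05, 10.62 and 10.83 in unstimulated CD8 cells (2.67, SE 0.21, adjusted p = 2.05e-06), and rose by 2.45 with continuous antigen in CD4 cells (SE 0.21, adjusted p = 1.02e-05).

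Of 15 genes for granule transport and release, 1 rose in CD4 and 0 in CD8 cells on day 2. Without the doubtful arrays 3 rose and 6 fell in CD4, and 1 rose and 4 fell in CD8 cells. These counts lay near the shares of all probe sets called in that setting, 62.3% in CD4 and 34.8% in CD8 cells. Transient against unstimulated cells of day 5 gave 2 higher and 4 lower in CD4, and 6 higher and 1 lower in CD8 cells. Of all probe sets 22.8% were called in the CD4 and 30.3% in the CD8 comparison. Rab11a, Vamp2 and Vamp7 were called in both lineages, with opposite signs. Rab11a, a GTPase of recycling endosomes, fell by 1.31 in CD4 cells (SE 0.18, adjusted p = 0.000207) and rose by 2.12 in CD8 cells (SE 0.15, adjusted p = 5.07e-07). Vamp2, a membrane fusion protein, fell by 1.59 (SE 0.23, adjusted p = 0.000309) and rose by 1.44 (SE 0.19, adjusted p = 7.48e-05). Vamp7, another, rose by 1.91 (SE 0.25, adjusted p = 0.000118) and fell by 1.59 (SE 0.20, adjusted p = 5.56e-05). The groups with low Rab11a and high Vamp7, CD4 transient and CD8 unstimulated, were those with the wide actin gap, and its part in the result was not tested. Continuous against transient cells gave 5 higher and 1 lower in CD4, and 1 higher and 5 lower in CD8 cells. Of all probe sets 18.2% were higher and 15.2% lower in the CD4 comparison, and 14% and 12.5% in the CD8 comparison. Rab27a, a GTPase that docks granules at the membrane, was 0.63 higher in CD4 continuous than in transient cells (SE 0.19, adjusted p = 0.0204), a call lost without the first array of either group.

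Among the 6 factors tied to granule genes are Tbx21 (T-bet) and Eomes, T-box activators of killer cell genes. Between transient and unstimulated CD8 cells of day 5 they changed in opposite directions. Tbx21 rose on day 2 by 5.69 in CD4 (SE 0.54, adjusted p = 7.59e-05) and by 4.46 in CD8 cells (SE 0.54, adjusted p = 0.000370), and 0 others were called. Without the doubtful arrays 1 of the 6 factors rose and 2 fell in each lineage, against 62.3% of all probe sets called in CD4 and 34.8% in CD8 cells. On day 5 transient CD8 cells had Tbx21 at 11.02, 11.02 and 10.82 against 7.94, 7.52 and 8.32 unstimulated (3.02, SE 0.35, adjusted p = 2.79e-05), so that it stayed high where Gzmb did not. In CD4 cells it was 8.48 and 8.88 transient and 11.80, 11.53 and 11.41 continuous (2.90, SE 0.39, adjusted p = 8.09e-05). Eomes was lower in transient than in unstimulated cells of both lineages, with differences of -2.11 in CD4 (SE 0.35, adjusted p = 0.000681) and -2.17 in CD8 cells (SE 0.28, adjusted p = 6.84e-05). In CD8 continuous cells it read 10.61, 11.19 and 11.59, 2.08 above transient (SE 0.28, adjusted p = 0.000153). Prdm1, a transcriptional repressor, was 1.74 higher there (SE 0.58, adjusted p = 0.0400). That call was lost without any transient or the first or second continuous array and with trend and robust moderation. Of the 6 factors 2 were higher and 1 lower in CD8 continuous than in transient cells, where 26.5% of all probe sets were called.

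Of 5 death ligands and killing cytokines, 4 rose in CD4 and 3 in CD8 cells on day 2, with all arrays and without the doubtful ones, with Fasl up by 3.31 (SE 0.53, adjusted p = 0.00216) in CD4 and 3.89 (SE 0.53, adjusted p = 0.000860) in CD8 cells. Ifng rose by 3.87 in CD4 cells (SE 1.00, adjusted p = 0.0257, lost without the first or the third unstimulated or the first or second stimulated array) and by 5.99 in CD8 cells (SE 1.00, adjusted p = 0.00317). On day 5 Ifng was higher in continuous than in transient cells, by 4.25 in CD4 (SE 0.68, adjusted p = 0.000294) and 4.52 in CD8 cells (SE 0.61, adjusted p = 0.000153). Fasl rose in the CD8 comparison, by 3.64 (SE 0.50, adjusted p = 0.000169). In CD4 cells it read 7.01, 7.86 and 7.71 continuous and 8.25 and 7.61 transient, with overlapping groups and a difference of -0.40 (SE 0.56, adjusted p = 0.628).

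**Figure D4:**
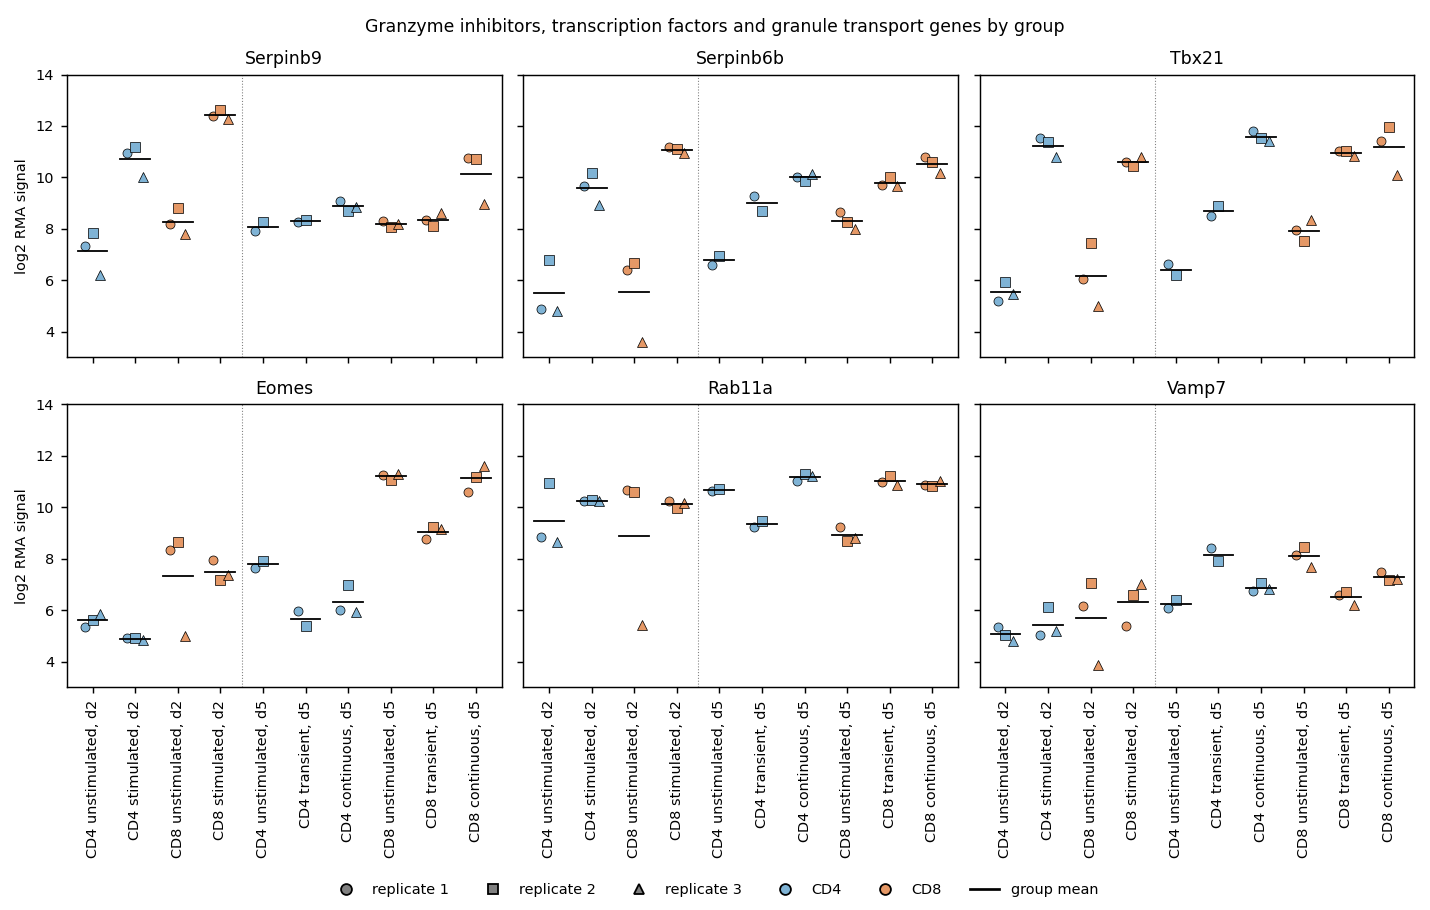
Log2 RMA signals on each array are plotted by group for the granzyme inhibitors Serpinb9 and Serpinb6b, the factors Tbx21 and Eomes, and the transport genes Rab11a and Vamp7, with group means as bars. Serpinb9 is highest in stimulated CD8 cells of day 2, Tbx21 is high in stimulated, CD8 transient and both continuous groups, and Rab11a and Vamp7 mirror each other in CD4 transient and CD8 unstimulated cells of day 5.

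The genes whose 10 group means were most like those of a member were ranked by Pearson correlation, as a description without a test. The points share arrays and processing. For Gzmb they were Kif11, a mitotic motor (0.98), Ttc39c (0.97) and Ccne2, a cyclin of S phase entry (0.97). Kif11 and Ccne2 also stayed in the top 3 over the 8 groups without unstimulated cells of day 2. For Gzmk they were Fosb (0.95), Tacc3 (0.95) and the inhibitory receptor Lair1 (0.94), of which Tacc3 stayed. For Gzma they were Hip1r (0.96), Ptprv (0.95) and Lair1 (0.94), of which Ptprv stayed, and for Nkg7 Glipr2 (0.91), Abcb10 (0.89) and Mcoln2 (0.89), of which Glipr2 stayed. The dim Prf1 probe set 1450335_at was most like Prkd2 (0.99), Vps9d1 (0.99) and Dctn6 (0.98), and the first 2 stayed. The top genes of Ctsw (D8Ertd738e, 0.92), Gzmc (Cd200r1, 0.85), Gzmm (Mrps36, 0.88) and the Prf1 probe set 1451862_a_at (Sfn, 0.88) were replaced in the 8 groups, with 0 of 3 kept. Among the members themselves, the group means of Gzma and Gzmk had a correlation of 0.82, those of Gzma and Ctsw 0.81, and those of Gzmb and Ctsw 0.07.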

How the data were processed

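The authors deposited log2 signals per probe set of the Affymetrix Mouse 430A2 array, made with RMA per the submitters' processing notes, in a version not given in the sources used here. RMA fits all arrays together, and arrays whose RNA differs in quality can shift dim probe sets. The table held 22690 probe sets. Left out were 64 controls, 691 with several symbols and 1555 with none. Of the 20380 left, 20351 matched a RefSeq gene by Entrez number. No array was a copy of another.

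Day 2 (12 arrays), day 5 (16) and all 28 (comparisons across days) were each fitted with limma (version 3.58.1, R 4.3.3), every group having its own mean. P-values were two-sided and adjusted over 20380 probe sets, and a call is an adjusted p below 0.05. The fits were checked on simulated data. The number of arrays limits the precision. Genes of pathway and marker lists were read by their brightest probe set. All members were named, with list genes chosen for their role. Members and lists were chosen with earlier results of these data known. The 3 same-numbered pairs of CD8 transient and unstimulated arrays of day 5 all deviated together (correlations 0.48, 0.30 and 0.16), a hint from the data and not from the labels. All 3 were also positive, but smaller, for CD8 continuous and transient cells (0.138, 0.196 and 0.002). Across days they were so for CD8 continuous and stimulated cells (0.059, 0.067 and 0.175). With 2 pairs, correlations were positive for CD4 continuous and unstimulated (0.383 and 0.245) and CD8 and CD4 unstimulated cells of day 5 (0.39 and 0.32). With all arrays, 0 to 1 of the 4 natural killer, 7 myeloid and 2 red cell genes and 0 to 2 of the 5 mast cell genes were called in any comparison. Without the third unstimulated arrays of day 2 up to 7 of the 7 myeloid genes were. No genome was used.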

Additional observations from a re-analysis of the deposited data

Results flagged for a closer look

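The response to transient stimulation on day 5, taken from unstimulated cells, was compared between lineages in a test of the difference itself. That test called 36.5% of all probe sets. The response differed between CD8 and CD4 cells for 5 of 9 member probe sets. It was higher in CD8 cells by 2.14 for Ctsw (SE 0.30, adjusted p = 7.67e-05), by 2.36 for Prf1 at 1451862_a_at (SE 0.61, adjusted p = 0.00796), by 0.70 for Prf1 at 1450335_at (SE 0.21, adjusted p = 0.0184) and by 0.89 for Gzmc (SE 0.26, adjusted p = 0.0170), and lower for Nkg7 (-1.98, SE 0.22, adjusted p = 9.82e-06), all in limma. Ctsw rose in CD8 and fell in CD4 cells. The calls of Gzmc and of Prf1 at 1450335_at were lost without the first CD4 unstimulated or the second CD4 transient array (adjusted p up to 0.105), and that of Gzmc also without the third arrays of all CD8 groups (adjusted p = 0.0544). The Gzmc signal lay below the lower quartile of the array in 3 of the 4 groups of this difference. CD4 unstimulated and CD4 transient had 2 arrays each. The actin gap was wide in CD4 transient and in CD8 unstimulated cells, which both enter this difference with a minus sign, and its part was not tested.

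The change from transient to continuous stimulation differed between lineages for Ctsw (-2.87, SE 0.28, adjusted p = 3.90e-05) and Nkg7 (-3.23, SE 0.21, adjusted p = 4.10e-06). These were 2 of 9 member probe sets, near the share of all probe sets called, 17.6%. Ctsw rose in CD4 and fell in CD8 cells, and Nkg7 rose in CD4 cells from 9.81 to 13.06 on average, while CD8 cells stood at 13.35 and 13.37. Both kept their call with each of 11 arrays left out in turn.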

How the results depend on the processing

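Of 115 called differences (members in all comparisons and named pathway genes), 103 kept their call under every alternative other than leaving out 1 array, and 80 also with each array left out. Of 29 uncalled ones that were reported, 10 stayed uncalled throughout. Called members in stimulated against unstimulated CD4 cells of day 2 went from 1 to 3 with quantile normalization, 4 with median centring and 7 without the third unstimulated arrays, while the share of all probe sets called went from 10.9% to 23.1%, 35.9% and 62.3%. In CD8 cells they went to 2, 2 and 5 (from 7.94% to 19.8%, 29.2% and 34.8% of all), and for the difference of the responses from 0 to 2 (1.97% of all) without those arrays. For CD4 transient cells of day 5 against stimulated cells of day 2 the count went from 0 to 2 with quantile normalization, to 1 with median centring, to 1 with the replicate block and to 4 without the third unstimulated arrays (12.8% of all called before and 24.2%, 26.2%, 14.2% and 37% after), and for CD8 cells from 4 to 7 without them (12.4% to 35.6%). Leaving out 1 array gave 0 to 2 in the CD4 and 1 to 2 in the CD8 comparison of day 2. On day 5 it gave 2 to 4 for CD4 transient and 3 to 5 for CD4 continuous against unstimulated, 5 to 6 for CD4 continuous against transient, 1 to 2 for CD8 transient and 3 to 7 for CD8 continuous against unstimulated, and 3 to 8 for CD8 continuous against transient. CD8 minus CD4 gave 3 to 5 transient and 2 to 4 continuous, and the transient response 3 to 5. Across days it gave 4 to 6 for CD4 continuous, 3 to 5 for CD8 continuous, 0 to 1 for CD4 transient and 3 to 4 for CD8 transient cells.

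Uncalled values changed sign with single arrays left out. On day 2 their range was -1.01 to 2.24 for Nkg7 in CD8 cells (also -1.01 without the third unstimulated arrays), -2.67 to 0.57 for the difference of the Nkg7 responses, -0.70 to 0.45 for the flatter Prf1 probe set (1450335_at) in CD4 cells, and -2.60 to 0.29 for Ctsw and -0.73 to 0.37 for Gzmk in CD8 cells. In continuous CD8 minus CD4 cells it was -0.49 to 1.94 for Gzma and -1.25 to 0.47 for Gzmb, which was also 0.47 without the third arrays of all CD8 groups. For Gzmb in CD8 continuous against stimulated cells of day 2 it was -1.65 to 0.064. The cause was not tested.

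Leaving out the third CD8 arrays of day 5 was chosen after the data were seen, as was the crossed pairing below. The replicate block ended 4 member calls, those of Gzma and of Prf1 at 1451862_a_at in CD4 continuous against transient and in CD8 continuous against unstimulated cells. It gave 1, for Gzmb in CD4 transient cells against stimulated cells of day 2, and changed no other member call. Same-numbered CD4 transient and unstimulated arrays of day 5 had a correlation of -0.16, and exchanging the transient numbers gave 1898 probe sets higher and 2804 lower, against 1841 and 2765 with the numbers as given. The block changed the probe sets called for CD8 transient against unstimulated cells from 3261 higher and 2904 lower to 3253 and 2832. With 2 or 3 arrays per group, and Gzmc and 1 Prf1 probe set near the floor, small differences can be missed.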
